A study of Homo sapiens with 6 samples.

Results

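DOCK1, DOCK4, DOCK5, DOCK6, DOCK8, DOCK9 and DOCK10 are autosomal genes of the DOCK (dedicator of cytokinesis) family. They were followed in HFL-1 cells, a human fetal lung fibroblast line, after knockdown of TAZ, the transcriptional coactivator encoded by WWTR1. The 7 genes were found by symbol among the 23355 named entries of the deposited count table. Of these 7 genes, 6 were among the 14053 genes with enough reads to be tested, and DOCK8 was not. DOCK2, DOCK3 and DOCK11 are given for comparison.

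The study asked which transcripts depend on TAZ in lung fibroblasts. RNA was sequenced from 3 groups of HFL-1 cells 48 h after transfection. The control group received a non-targeting siRNA (siNTC), and the other groups received either of 2 siRNAs against TAZ (siTAZ #1 and siTAZ #2). Each group had 2 libraries, described as biological replicates. All groups were transfected siRNA cultures of a single cell line, so no library came from untransfected cells, and the p-values measure the spread between these cultures only.

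DOCK proteins are guanine nucleotide exchange factors, which load the small GTPases Rac and Cdc42 with GTP and so start the remodelling of actin at the cell edge. They lack the Dbl domain of most other exchange factors for these GTPases and carry instead a DHR1 domain, which binds membrane phosphoinositides, and a DHR2 domain, which catalyses the exchange. Subfamilies A (here DOCK1 and DOCK5) and B (DOCK4) act on Rac together with ELMO scaffold proteins. Subfamily C (DOCK6 and DOCK8) acts on Rac, Cdc42 or both, and subfamily D (DOCK9 and DOCK10), the zizimins, is known for Cdc42. In fibroblasts, Rac and Cdc42 are known for driving lamellipodia and filopodia during spreading and migration.

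The libraries held from 15648055 to 32078188 counts in named genes. Levels are given as CPM, counts scaled to a common library size with edgeR's TMM factors. WWTR1 was lower in every siTAZ library, at 131 and 132 CPM in siNTC, 26.4 and 28.4 with siTAZ #1, and 43.1 and 46.1 with siTAZ #2. One library stood apart. In siTAZ #1 replicate 2, counts were nearly missing for genes from RANGAP1 on chromosome 22 to the end of Y, which held 577 of the tested genes. None of the 7 DOCK genes lay there, but DOCK11 did, and DOCK11 had 2.02 CPM in that library against 19.0 to 26.2 in the other 5. The 10 fibroblast markers listed were all detected. Their summed level was 34957 to 35038 CPM in siNTC, 23304 to 24153 with siTAZ #1 and 27284 to 29036 with siTAZ #2. The single markers went both ways. By group means, COL1A2, COL3A1, VIM, DCN and LUM were lower with both siRNAs, and PDGFRA, PDGFRB and FAP were higher with both. COL1A1 was lower with siTAZ #1 and higher with siTAZ #2, and THY1 was higher with siTAZ #2. COL1A2 had means of 12437 CPM in siNTC, 6173 with siTAZ #1 and 7282 with siTAZ #2, and PDGFRA 424, 1397 and 508. The part of these differences in the DOCK results was not tested. All 6 leukocyte markers stayed under 1 CPM in every library, and their sum was 0.380 to 0.725 CPM. The epithelial list summed to at most 3.04 CPM, and the endothelial list to 26.1 to 47.3 CPM, of which TEK alone gave 24.0 to 44.8. In bulk RNA, fewer cells that express a gene and less of its RNA per cell cannot be told apart.

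Promoter sequence is shown for DOCK1, DOCK4 and DOCK10, the members that passed the test as higher with siTAZ #1 than with siTAZ #2. Each window runs 5′ to 3′ from 250 bases before to 50 bases after a RefSeq gene start on GRCh38.p14. Capitals mark matches, on either strand, to GGAATG, the core bound by the TEAD factors that recruit TAZ, or to TGANTCA. The latter is a loose form of the AP-1 motif, in which N stands for any base. The DOCK1 window is chr10:126905178-126905477 on the plus strand, the DOCK4 window chr7:112206350-112206649 on the minus strand and the first DOCK10 window chr2:225042419-225042718 on the minus strand.
DOCK1: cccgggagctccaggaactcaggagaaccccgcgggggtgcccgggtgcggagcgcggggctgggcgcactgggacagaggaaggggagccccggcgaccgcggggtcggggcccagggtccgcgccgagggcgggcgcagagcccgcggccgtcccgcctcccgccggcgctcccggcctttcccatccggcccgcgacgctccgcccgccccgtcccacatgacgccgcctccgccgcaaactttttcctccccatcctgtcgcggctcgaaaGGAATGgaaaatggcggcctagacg
DOCK4: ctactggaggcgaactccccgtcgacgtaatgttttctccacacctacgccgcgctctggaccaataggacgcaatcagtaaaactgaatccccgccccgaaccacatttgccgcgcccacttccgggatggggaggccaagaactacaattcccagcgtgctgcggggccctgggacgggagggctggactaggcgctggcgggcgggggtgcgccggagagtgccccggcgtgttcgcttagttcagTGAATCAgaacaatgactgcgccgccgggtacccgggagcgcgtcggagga
DOCK10: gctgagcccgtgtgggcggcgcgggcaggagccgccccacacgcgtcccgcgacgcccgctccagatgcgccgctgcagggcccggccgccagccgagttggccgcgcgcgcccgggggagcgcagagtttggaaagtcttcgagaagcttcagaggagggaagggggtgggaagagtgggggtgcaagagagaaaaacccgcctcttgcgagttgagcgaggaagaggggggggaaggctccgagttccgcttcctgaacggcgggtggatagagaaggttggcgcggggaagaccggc

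The DOCK1 window held 1 TEAD match, 26 bases into the transcript, and no AP-1 match. The DOCK4 window held no TEAD match and 1 AP-1 match, spelled TGAATCA and beginning 1 base before the start. Neither window held both motifs, so no matches overlapped. None of the 7 windows of DOCK8, DOCK9 and DOCK10 held either motif. RefSeq windows were found for 5 of the 7 members, 9 windows in all. For the members, windows on chromosome 8, where DOCK5 lies, were left out of the search, so DOCK5 was not examined. DOCK6 had none in the table used. Over all 35116 windows of the table, 14.0% held a TEAD match and 7.71% an AP-1 match. A match is only a description of these letters.

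In control cells DOCK1 led the family. For levels between genes, CPM were divided by the length of the canonical transcript, from 6430 nt for DOCK6 to 10246 nt for DOCK5. On this scale, the siNTC mean was 24.5 ± 0.41 CPM per kb for DOCK1 (SD, n = 2 for every mean here). DOCK10 followed at 8.96 ± 0.014, DOCK6 at 5.39 ± 0.43, DOCK4 at 4.57 ± 0.18, DOCK5 at 3.05 ± 0.073 and DOCK9 at 1.20 ± 0.24 CPM per kb. DOCK8, whose product is best known from leukocytes, was last at 0.047 ± 0.030 CPM per kb. The ranges of neighbours in this order did not overlap. DOCK1 thus made up 51.3% of the summed level of the 7 genes and DOCK5 6.40%.

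**Figure D1:**
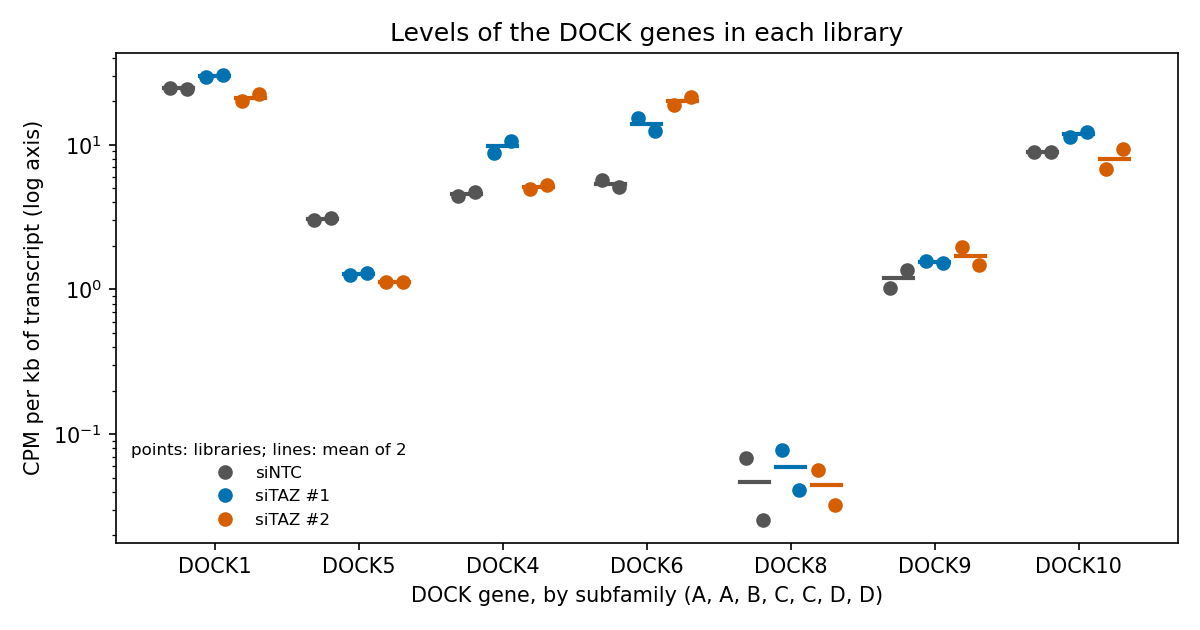
Level of each of the 7 DOCK genes in each of the 6 libraries, as CPM per kb of the canonical transcript on a log axis. Points are single libraries and lines the mean of 2. DOCK5 sits lower and DOCK6 higher in all 4 siTAZ libraries than in both siNTC libraries, DOCK4 is set apart with siTAZ #1, and DOCK8 stays under 0.1 in every library.

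Of the 6 tested members, 1 fell and 2 rose with siTAZ #1, while 9.78% of all tested genes fell and 10.8% rose, 20.6% in all (edgeR quasi-likelihood test, false discovery rate, FDR, under 0.05). With siTAZ #2, 1 fell and 1 rose, against 14.4% and 14.1% of all tested genes, 28.5% in all. The median log2 fold change of the 6 was 0.38 with siTAZ #1 and 0.0047 with siTAZ #2, beside 0.02 and 0.01 for all tested genes. DOCK5 fell and DOCK6 rose with both siRNAs, and 3.74% of all tested genes fell and 5.49% rose with both. Both comparisons share the siNTC libraries, so they are not independent of each other. In the 4 siTAZ libraries, DOCK5 was below both siNTC libraries, as 17.5% of all tested genes were, and DOCK4, DOCK6 and DOCK9 were above both, as 18.6% of all tested genes were. With so few genes, these counts were not read as a pattern of the family.

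**Figure D2:**
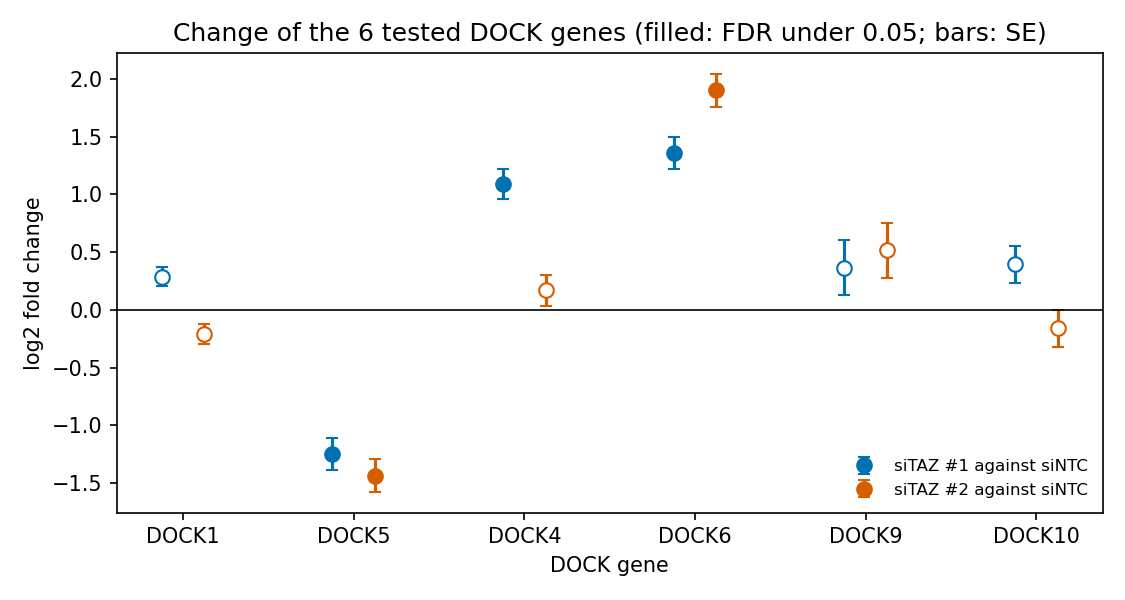
Log2 fold change of the 6 tested DOCK genes with siTAZ #1 and siTAZ #2 against siNTC. Bars are the standard error (SE) of the fit, and filled points have an FDR under 0.05. DOCK5 is filled below 0 and DOCK6 above 0 with both siRNAs, and DOCK4 is filled with siTAZ #1 alone.

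DOCK1, first known as DOCK180, is the founding member of the family and couples integrin and growth factor signals to Rac through ELMO and CRK. Its level was 170 and 166 CPM in siNTC, 202 and 207 CPM with siTAZ #1, and 138 and 152 CPM with siTAZ #2. The groups did not overlap, with siTAZ #1 above and siTAZ #2 below the controls. Neither difference from siNTC passed the test, at a log2 fold change of 0.29 ± 0.08 (SE; edgeR FDR 0.06) with siTAZ #1 and -0.21 ± 0.08 (edgeR FDR 0.11) with siTAZ #2. The 95% intervals were 0.08 to 0.49 and -0.41 to -0.01. Under 4 of 19 alternative settings the siTAZ #1 change did pass, and under 0 of 19 the siTAZ #2 change. Among the 4 were DESeq2 (0.28, DESeq2 FDR 0.046) and an offset for GC content and transcript length (0.31, edgeR FDR 0.031). Set directly against each other, the siRNAs differed by 0.50 ± 0.08 (edgeR FDR 0.0087), higher with siTAZ #1. This difference was lost under 2 of 19 settings, the exact test (0.50, edgeR FDR 0.32) and leaving out siTAZ #2 replicate 1 (0.43). DOCK1 spans chr10:128593978-129250781 on the plus strand of GRCh37. FAM196A lies inside DOCK1 on the opposite strand without sharing exon bases, and had 27 to 246 counts per library. A pair of lncRNA genes on that strand, ENSG00000223528 and ENSG00000232935, share 431 and 73 exon bases with DOCK1. The strand setting of the counting is not given in the sources used here, and without it reads from such bases cannot be told apart.

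DOCK5, the other subfamily A member, is a Rac exchange factor known from osteoclasts and from epithelial spreading. Its level was 30.7 and 31.8 CPM in siNTC, 12.9 and 13.4 CPM with siTAZ #1, and 11.5 and 11.6 CPM with siTAZ #2. All 4 siTAZ libraries were below both controls, and replicates lay closer together than the groups. DOCK5 fell 2.38-fold with siTAZ #1 (log2 fold change -1.25 ± 0.14, edgeR FDR 0.0038). With siTAZ #2 it fell 2.70-fold (-1.43 ± 0.14, edgeR FDR 0.0018). The difference between the siRNAs did not pass the threshold, and the interval of their difference ran from -0.15 to 0.52 on the log2 scale (edgeR FDR 0.37). The fall rested on raw counts of 485 and 504 in siNTC against 192 to 437 in the siTAZ libraries, the highest of these from the library of greatest depth. DOCK5 is on the study's own list of genes lower with both siRNAs, a list drawn from these libraries, so its place there is no independent evidence. The gene lies at chr8:25042204-25275598 on the plus strand of GRCh37.

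DOCK4, the only subfamily B member in the set, activates Rac and is known for a part in cell migration and in Wnt signalling. Its level was 37.1 and 39.2 CPM in siNTC, 73.7 and 88.9 CPM with siTAZ #1, and 41.6 and 44.1 CPM with siTAZ #2. The siTAZ #1 libraries stood well above the rest, while the siTAZ #2 libraries were just above the controls. DOCK4 rose 2.13-fold with siTAZ #1 (log2 fold change 1.09 ± 0.13, edgeR FDR 0.0047). With siTAZ #2 the change was 0.17 ± 0.13, with an interval of -0.15 to 0.49 (edgeR FDR 0.38). The difference between the siRNAs was itself past the threshold, at 0.92 ± 0.13 (edgeR FDR 0.0051). The call with siTAZ #1 was kept under 17 of 19 settings. It was lost when a control was left out, at 1.04 without siNTC replicate 1 and 1.12 without siNTC replicate 2, beside 1.09 in the reported fit. Without siTAZ #1 replicate 2, the library that stood apart, the change was 0.95. DOCK4 lies at chr7:111366166-111846462 on the minus strand of GRCh37. The opposite-strand lncRNA gene ENSG00000287011 shares 309 exon bases with it, and reads from them cannot be told apart without strand.

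DOCK6, of subfamily C, acts on both Rac and Cdc42 and is mutated in Adams-Oliver syndrome. Its level was 36.6 and 32.7 CPM in siNTC, 97.9 and 80.02 CPM with siTAZ #1, and 121 and 138 CPM with siTAZ #2. The 3 groups did not overlap, and all 4 siTAZ libraries were above both controls. DOCK6 rose 2.57-fold with siTAZ #1 (log2 fold change 1.36 ± 0.14, edgeR FDR 0.003). With siTAZ #2 it rose 3.74-fold (1.90 ± 0.14, edgeR FDR 0.00091), the largest change among the 6 tested members. The siRNAs differed by -0.54 ± 0.14 (edgeR FDR 0.032), lower with siTAZ #1. DOCK6 has the highest GC content of the 7 canonical transcripts, 61.6% against 43.3% to 48.4% for the others. With an offset for GC content and transcript length, the changes against siNTC were 1.34 and 1.62 and still passed (edgeR FDR 0.0017 and 0.00076). The difference between the siRNAs then became -0.28 and did not pass (edgeR FDR 0.12), and it was lost under 8 of 19 settings in all. These included leaving out either siNTC library (-0.53 in both, edgeR FDR 0.072), siTAZ #2 replicate 1 (-0.63, edgeR FDR 0.074) or siTAZ #2 replicate 2 (-0.43, edgeR FDR 0.18), the exact test (edgeR FDR 0.29) and the replicate block (edgeR FDR 0.064). DOCK6 lies at chr19:11309971-11373200 on the minus strand of GRCh37. It shares 73 exon bases with ANGPTL8 on the opposite strand (C19orf80 in the table), which had 0 to 9 counts per library.

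DOCK8, also of subfamily C, is a Cdc42 exchange factor whose loss causes an immunodeficiency. It had 8 and 3 counts in siNTC, 9 and 10 with siTAZ #1, and 9 and 4 with siTAZ #2, or 0.189 to 0.581 CPM. The groups overlapped, and at this depth no difference in DOCK8 could be tested. Its exons share 426 bases with DOCK8-AS1 on the opposite strand (C9orf66 in the table), which had 1 to 7 counts, so part of the few reads may belong to either gene. The PTPRC gene, the common leukocyte antigen, had at most 3 counts in any library. DOCK8 lies at chr9:214854-465259 on the plus strand of GRCh37.

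DOCK9, or zizimin 1 of subfamily D, activates Cdc42. Its level was 7.86 and 10.5 CPM in siNTC, 12.0 and 11.7 CPM with siTAZ #1, and 15.0 and 11.2 CPM with siTAZ #2. All 4 siTAZ libraries were above both controls, but the controls differed from each other by more than the higher control differed from the nearest siTAZ library. DOCK9 gave log2 fold changes of 0.37 ± 0.24 with siTAZ #1 (edgeR FDR 0.32) and 0.52 ± 0.24 with siTAZ #2 (edgeR FDR 0.16). The intervals ran from -0.21 to 0.95 and from -0.06 to 1.09, so changes of that size were not detectable with these libraries. DOCK9 lies at chr13:99445683-99738879 on the minus strand of GRCh37.

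DOCK10, or zizimin 3, acts on Cdc42 and is known from lymphocytes and from the movement of tumour cells. Its level was 65.2 and 65.4 CPM in siNTC, 83.0 and 88.7 CPM with siTAZ #1, and 49.4 and 67.6 CPM with siTAZ #2. The siTAZ #1 libraries were the highest, and the siTAZ #2 libraries lay on both sides of the controls. Neither change passed the test, at 0.39 ± 0.16 with siTAZ #1 (edgeR FDR 0.14) and -0.16 ± 0.16 with siTAZ #2 (edgeR FDR 0.50). The siRNAs differed by 0.55 ± 0.16, at the edge of the threshold (edgeR FDR 0.049). That call was lost under 12 of 19 alternative settings, among them leaving out siTAZ #2 replicate 1 (0.34, edgeR FDR 0.13), siNTC replicate 1 or siNTC replicate 2 (0.56 in both, edgeR FDR 0.10). DOCK10 lies at chr2:225629807-225907185 on the minus strand of GRCh37.

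Between the siRNAs, 3 of the 6 tested members were higher with siTAZ #1 (DOCK1, DOCK4 and DOCK10) and 1 was lower (DOCK6). Of all tested genes, 15.2% were higher and 13.4% lower in that comparison, 28.6% in all. DOCK5 and DOCK9 did not pass it. WWTR1 itself was lower with siTAZ #1 than with siTAZ #2, by -0.70 ± 0.10 (edgeR FDR 0.005). The part of the extent of knockdown in the DOCK differences was not tested, and in this design it cannot be told apart from the siRNA used.

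The make-up of the set shifted from DOCK1 towards DOCK6. The summed level of the 7 genes was 47.7 ± 0.36 CPM per kb in siNTC, 68.1 ± 0.34 with siTAZ #1 and 57.4 ± 5.01 with siTAZ #2. DOCK6 gave 11.3% ± 0.81 of that sum in siNTC, 20.3% ± 2.98 with siTAZ #1 and 35.1% ± 0.22 with siTAZ #2. DOCK1 gave 51.3% ± 0.47, 43.9% ± 0.49 and 36.97% ± 0.61. DOCK5 gave 6.40% ± 0.20, 1.88% ± 0.041 and 1.98% ± 0.17. These shares are parts of a whole, so a rise of one lowers the others, and they were not tested. By level, DOCK6 moved from the third place in siNTC to the second with both siRNAs. With siTAZ #2 it reached 20.1 CPM per kb beside 21.2 for DOCK1, and the ranges of these 2 genes overlapped (18.8 to 21.5 and 20.1 to 22.3). DOCK5 dropped below DOCK9 with both siRNAs, at 1.28 against 1.55 and 1.13 against 1.72 CPM per kb, with no overlap of ranges. By subfamily, A made up 57.7%, 45.7% and 38.9% of the sum and C 11.4%, 20.4% and 35.1%.

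**Figure D3:**
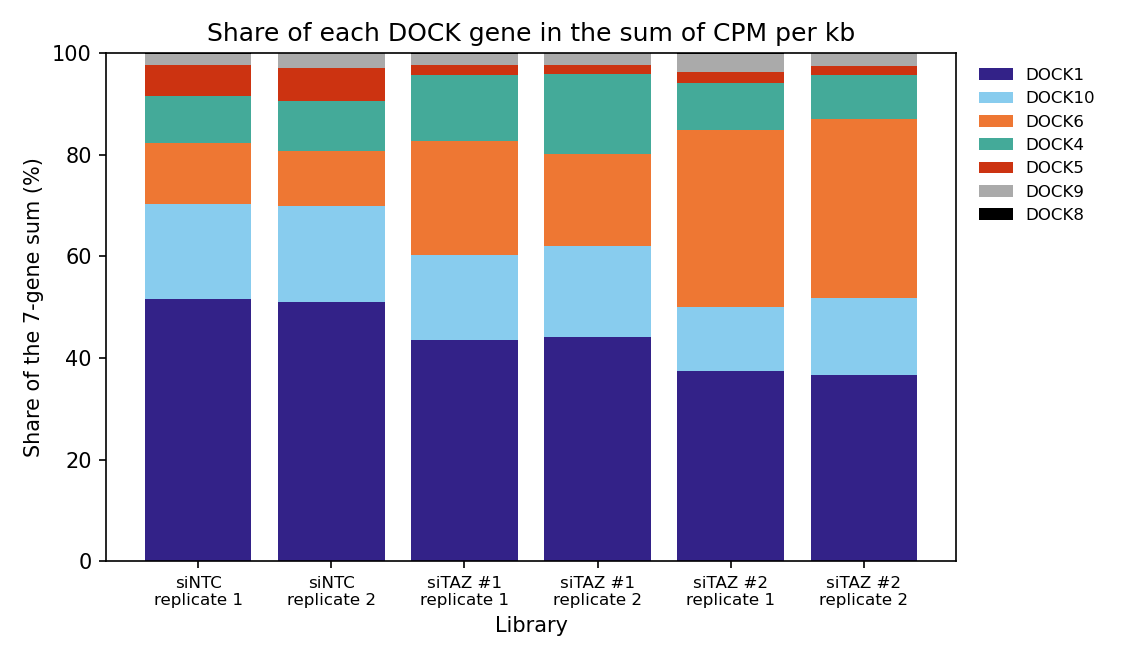
Share of each of the 7 DOCK genes in their summed level (CPM per kb of transcript, in %) in each library. The DOCK6 share is larger in the siTAZ libraries, with group means of 20.3% and 35.1% against 11.3% in siNTC, while the DOCK5 share falls from 6.40% to 1.88% and 1.98%. DOCK8 is too small to see.

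DOCK2, the haematopoietic subfamily A member, had 10.1 and 12.7 CPM in siNTC against 7.16 to 10.03 in the siTAZ libraries, and did not pass with either siRNA (-0.54, edgeR FDR 0.13, and -0.21, edgeR FDR 0.49). DOCK3 stayed under 2 CPM and did not pass. DOCK11, in the region nearly missing from siTAZ #1 replicate 2, gave -0.64 with siTAZ #1 (edgeR FDR 0.68) and 0.27 without that library (edgeR FDR 0.40). With siTAZ #2 it gave -0.18 (edgeR FDR 0.92).

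The partners, substrates and targets of the DOCK proteins were read from fixed lists of 109 genes, which include other DOCK genes. Among 12 tested partners and activators of the 13 listed, 1 fell and 2 rose with siTAZ #1, and 3 fell and 1 rose with siTAZ #2, where 20.6% and 28.5% of all genes tested passed in either direction. Their median log2 fold change was -0.03 and -0.30. ELMO2, the scaffold that binds the A and B subfamilies, had 87.99 and 90.8 CPM in siNTC, 68.3 and 56.4 CPM with siTAZ #1, and 37.6 CPM in both siTAZ #2 libraries. It fell by 0.52 ± 0.12 on the log2 scale with siTAZ #1 (edgeR FDR 0.034) and by 1.25 ± 0.12 with siTAZ #2 (edgeR FDR 0.0019). The siTAZ #1 call was lost under 7 of 19 settings, among them without siNTC replicate 1 (-0.55, edgeR FDR 0.15), siNTC replicate 2 (-0.51, edgeR FDR 0.18), siTAZ #2 replicate 1 (-0.52, edgeR FDR 0.069) and siTAZ #2 replicate 2 (-0.54, edgeR FDR 0.067). The siTAZ #2 call was kept under all 19. BCAR1, the p130Cas adaptor that brings CRK and DOCK1 to adhesions, rose by 0.65 ± 0.14 (edgeR FDR 0.027) and 0.79 ± 0.14 (edgeR FDR 0.011), and its calls were lost under 6 and 3 settings. ELMO1, ELMO2's better known relative, was too low to be tested.

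The next lists are set beside all genes tested, of which 9.78% fell and 10.8% rose with siTAZ #1. With siTAZ #2 these shares were 14.4% and 14.1%, and with both siRNAs 3.74% and 5.49%. Among 23 tested exchange factors other than DOCK, of 30 listed, 2 rose and 0 fell with siTAZ #1 in edgeR. With siTAZ #2, 4 of them rose and 2 fell. At an unadjusted p under 0.05, 6 were lower with siTAZ #1, and DESeq2 called 2 and the exact test 0. The medians were -0.06 and 0.10. RASGRF2, which acts on Ras and Rac, rose by 1.47 ± 0.12 (edgeR FDR 0.0014) and 0.86 ± 0.11 (edgeR FDR 0.0041), and was the only one of these called in the same direction with both siRNAs. Of the GTPases and their GDIs, 9 of 11 were tested. With siTAZ #1, 2 fell and 2 rose, with siTAZ #2, 2 fell and 0 rose in edgeR (0 at an unadjusted p under 0.05, 0 with DESeq2 and 1 with the exact test), and none was called the same way with both. GAPs, which switch Rac and Cdc42 off, had 16 of 18 members tested. With siTAZ #1, 0 fell in edgeR (3 at an unadjusted p under 0.05, 1 with DESeq2 and 0 with the exact test) and 3 rose, and with siTAZ #2, 3 fell and 2 rose. ARHGAP39 rose by 1.18 ± 0.20 (edgeR FDR 0.012) and 1.54 ± 0.20 (edgeR FDR 0.0039), and CHN1, or chimaerin 1, by 0.45 ± 0.10 (edgeR FDR 0.032) and 0.61 ± 0.10 (edgeR FDR 0.009). The siTAZ #1 call of ARHGAP39 was lost without siNTC replicate 1 (1.05, edgeR FDR 0.091) or siNTC replicate 2 (1.30, edgeR FDR 0.067), and that of CHN1 under 7 settings.

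The effectors moved in both directions. Of 34 listed, 31 were tested, of which 7 fell and 7 rose with siTAZ #1 and 6 fell and 9 rose with siTAZ #2. With both siRNAs, 4 fell and 4 rose. Of all genes tested, 9.78% fell and 10.8% rose with siTAZ #1, 14.4% and 14.1% with siTAZ #2, and 3.74% and 5.49% with both. CYFIP2, a subunit of the WAVE complex that links Rac to actin branching, had 9.07 and 10.1 CPM in siNTC, 50.3 and 44.9 CPM with siTAZ #1, and 37.4 and 37.6 CPM with siTAZ #2. It rose by 2.31 ± 0.13 (edgeR FDR 0.0008) and 1.97 ± 0.13 (edgeR FDR 0.0007). WASF2, or WAVE2, another subunit of that complex, fell by 1.31 ± 0.12 with siTAZ #1 (edgeR FDR 0.002) and by 0.94 ± 0.12 with siTAZ #2 (edgeR FDR 0.0035). PAK1, a kinase turned on by Rac and Cdc42, fell by 0.81 ± 0.12 (edgeR FDR 0.008) and by 1.15 ± 0.12 (edgeR FDR 0.0021). PARD6G, a polarity protein that binds Cdc42, rose by 1.38 ± 0.18 (edgeR FDR 0.0059) and 0.96 ± 0.18 (edgeR FDR 0.013). The calls of CYFIP2 and WASF2 were kept under all 19 settings with both siRNAs. The siTAZ #1 call of PAK1 was lost with the exact test (-0.82, edgeR FDR 0.077) and without either siNTC library (-0.83 and -0.80). The siTAZ #2 call of PARD6G was lost without siNTC replicate 2 (0.73), siTAZ #2 replicate 1 (0.93) or siTAZ #2 replicate 2 (0.97).

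**Figure D4:**
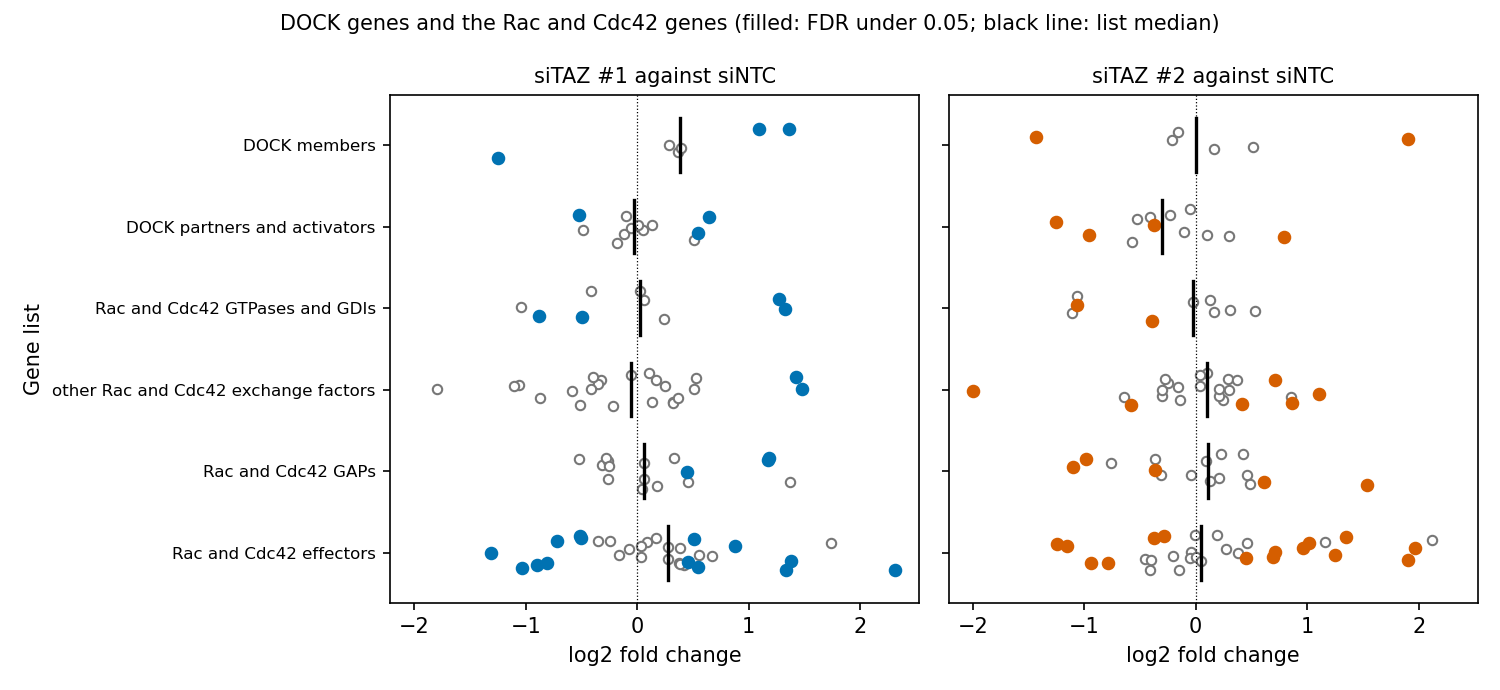
Log2 fold change of every tested gene in the DOCK set and in 5 lists of partners, GTPases, exchange factors, GAPs and effectors, with siTAZ #1 on the left and siTAZ #2 on the right. Filled points have an FDR under 0.05, and black lines are list medians. The list medians lie between -0.30 and 0.38, and the effector list has filled points on both sides of 0 in both panels.

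For the members called with at least 1 siRNA, the genes with the most similar pattern were sought among 9491 genes, by Pearson r of log2 CPM over the 6 libraries. These values are descriptions, since the 6 libraries form 3 groups and share their depth between genes. Further genes were almost as close to each member, so the 3 named are hardly set apart from them. The r also takes no account of the size of a change. PDGFRB, named below for DOCK6, changed by 0.39 with siTAZ #1 and 0.54 with siTAZ #2, against 1.36 and 1.90 for DOCK6. The nearest to DOCK5 were GREM1, a BMP antagonist (r = 0.996), RBMS2 (0.995) and SH3D19 (0.995). GREM1 had 880 and 905 CPM in siNTC against 278 to 363 CPM in the siTAZ libraries. The nearest to DOCK6 were FAM20C, a secretory pathway kinase (r = 1.00), PDGFRB, the PDGF receptor beta (0.999), and GPR85 (0.999). FAM20C had 93.5 and 87.8 CPM in siNTC, 181 and 156 CPM with siTAZ #1, and 209 and 220 CPM with siTAZ #2, the order of groups seen for DOCK6. The nearest to DOCK4 were RNF4 (0.998), RRAGC (0.996) and ADRBK1 (0.995). RNF4 had 57.9 and 58.6 CPM in siNTC, 87.1 and 97.9 CPM with siTAZ #1, and 63.5 and 64.6 CPM with siTAZ #2.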

How the data were processed

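RNA was prepared 48 h after transfection and sequenced on an Ion Proton. Per the labels and the study's methods, the authors mapped reads with TMAP (build hg19), assigned them to Ensembl genes in HTSeq 0.6.1, and deposited whole-number counts. The strand and overlap settings are not given in the sources used here. Of 23368 entries, 13 named as dates (0.0458% to 0.0506% of counts) were left out.

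Groups were taken from the labels, with 2 libraries each. Counts were tested in edgeR 4.0.16 (R 4.3.3) by the quasi-likelihood test, with filterByExpr, TMM scaling and a single fit of the 6 libraries. FDR is Benjamini-Hochberg over 14053 genes, with a threshold of 0.05. SE is the log2 fold change over the square root of F, and 95% intervals use the t distribution of the fit. CPM are TMM-normalized. Positions and lengths came from GENCODE on GRCh37. The region nearly missing from siTAZ #1 replicate 2 raised the common dispersion from 0.0164 to 0.0807.

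Genes named were DOCK genes, WWTR1, up to 4 genes per list called the same way with both siRNAs, ranked by mean absolute change, and the 3 genes most like each called member among those of at least 10 CPM. CDC42, RAC1 and RHOG were named after their values were seen. Some results are not reported here. The members and lists were chosen with earlier results of these data known. Alternatives were DESeq2 1.42.0, edgeR's exact test, other scalings, filters and fits, a replicate block, a GC and length offset (mgcv 1.9.3), fits without the region and leaving out each library, 19 in all. The tests were checked on simulated counts. Counting error limits the low genes, since reads without molecular identifiers are not independent molecules.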

Additional observations from a re-analysis of the deposited data

Results flagged for a closer look

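The effects of siTAZ #1 and siTAZ #2, tested directly against each other, differed for 4 of the 6 tested DOCK members. On the log2 scale, siTAZ #1 minus siTAZ #2 was 0.50 for DOCK1 (edgeR FDR 0.0087), 0.92 for DOCK4 (0.0051), -0.54 for DOCK6 (0.032) and 0.55 for DOCK10 (0.049). Among the other genes named, the same test differed for WWTR1 at -0.70 (edgeR FDR 0.005), ELMO2 at 0.73 (0.0089), RASGRF2 at 0.61 (0.012), CDC42 at -0.86 (0.009), RAC1 at 0.63 (0.0095) and RHOG at 0.86 (0.015). Of all tested genes, 28.6% differed in this comparison.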

How the results depend on the processing

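The 18 comparisons of the tested members gave 342 values under 19 alternatives. Of these, 310 kept direction and side of the threshold, 25 kept direction but no longer passed, 5 passed where the reported value had not, and 2 changed sign. DOCK5 and DOCK6 kept their calls against siNTC with both siRNAs under all 19. No setting moved the median of all genes by over 0.05.

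Leaving out each library, signs changed within the range for DOCK10 with siTAZ #2 (-0.43 to 0.049, above 0 without siTAZ #2 replicate 1), DOCK9 between the siRNAs (-0.33 to 0.076, same library), DOCK11 with siTAZ #1 (-3.43 to 0.27) and between the siRNAs (-3.24 to 0.45), RHOG with siTAZ #1 (-0.22 to 0.015; these 3 above 0 without siTAZ #1 replicate 2) and CDC42 with siTAZ #2 (-0.18 to 0.097, above 0 without siTAZ #2 replicate 2). CDC42 with siTAZ #2 was also 0.023 with library totals alone and 0.036 with the GC and length offset, and BCAR1 between the siRNAs 0.17 with that offset. The cause was not tested.

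Between the siRNAs, the members lower numbered 1, and 0 with the exact test (also 0 without adjustment at p under 0.05, but 1 with DESeq2), the fit of 4 libraries, the replicate block or the offset, and 0 to 1 leaving out each library. The members higher numbered 3, 0 with the exact test (1 at an unadjusted p under 0.05, and 3 with DESeq2) and 1 to 3 leaving out each library. With siTAZ #1, 1 to 4 members were higher leaving out each library, against 2 (4 without siTAZ #1 replicate 1, 1 without either siNTC library). In the lists with siTAZ #1, genes lower numbered 10, but 3 with the exact test, 6 with the fit of 4 libraries, 6 with the replicate block, 17 without the region, and 3 to 17 leaving out each library. Genes higher numbered 17, but 9 with the exact test and 4 to 23 leaving out each library. With siTAZ #2, genes lower numbered 16, but 10 with the replicate block and 7 to 22 leaving out each library, and genes higher 17 and 8 to 21.

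Correlations of deviations between same-numbered replicates were -0.01, 0.02 and -0.28, the last between siTAZ #1 and siTAZ #2. With 2 libraries per group they cannot tell whether replicate numbers pair the libraries, so the replicate block is only an alternative. It moved the genes lower and higher with siTAZ #1 from 1374 and 1515 to 823 and 868, and the exact test moved them to 492 and 569. With siTAZ #2 the exact test moved 2021 and 1983 to 3165 and 3259. Leaving out 1 library gave 277 to 2599 lower and 279 to 2489 higher with siTAZ #1, and 714 to 2996 lower and 614 to 3014 higher with siTAZ #2, with the lowest counts without siNTC replicate 1 or 2 (302 and 283, 277 and 279 with siTAZ #1, and 774 and 629, 714 and 614 with siTAZ #2). The shares of all genes printed beside the members are those of the reported fit and move with these counts. A block crossing the siTAZ #1 numbers, added after seeing the data, gave 1244 and 1368. Fits with 1 library in a group assume that it varies like the others. Having 2 libraries per group limits what could be detected, and DOCK8 was too low to test.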

Other observations

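GTPase genes outside the rule for named genes were looked at because the DOCK proteins act on their products or through them, and they were chosen after their values were seen. CDC42 had 280 and 285 CPM in siNTC, 137 and 170 CPM with siTAZ #1, and 308 and 249 CPM with siTAZ #2. It fell by 0.88 ± 0.15 on the log2 scale with siTAZ #1 (edgeR FDR 0.011) and gave -0.02 ± 0.14 with siTAZ #2 (edgeR FDR 0.93). The siTAZ #1 call was lost without siNTC replicate 1 (-0.91, edgeR FDR 0.082) or siNTC replicate 2 (-0.88, edgeR FDR 0.085). RAC1 had 305 and 288 CPM in siNTC, 330 and 371 CPM with siTAZ #1, and 243 and 209 CPM with siTAZ #2. It gave 0.24 ± 0.11 with siTAZ #1 (edgeR FDR 0.17) and fell by 0.39 ± 0.11 with siTAZ #2 (edgeR FDR 0.044), a call lost under 8 of 19 settings, among them without siNTC replicate 1 (-0.37), siNTC replicate 2 (-0.45), siTAZ #2 replicate 1 (-0.50) or siTAZ #2 replicate 2 (-0.31). RHOG, the GTPase that recruits ELMO and DOCK proteins to the membrane, had 47.1 and 49.3 CPM in siNTC, 48.7 and 41.3 CPM with siTAZ #1, and 21.6 and 28.1 CPM with siTAZ #2. It fell by 0.96 ± 0.17 with siTAZ #2 (edgeR FDR 0.011) and gave -0.10 ± 0.17 with siTAZ #1 (edgeR FDR 0.71). The siTAZ #2 call was lost without siNTC replicate 1 (-1.01, edgeR FDR 0.065), siNTC replicate 2 (-0.94, edgeR FDR 0.076) or siTAZ #2 replicate 1 (-0.78, edgeR FDR 0.054).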
